A study of Mus musculus with 52 samples.

Results

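The data described here are the 26 single-cell transcriptomes of the dexamethasone-treated daughter pairs, 26 of the 52 cells and 13 of the 26 pairs of the series. All 13 pairs were taken, and the examined genes were those that reached 5 counts in 8 or more of the 26 cells, which gave 6949 of 49466. Each founder was a burst-forming unit-erythroid (BFU-E) cell from the fetal liver of C57/Bl6J mice at embryonic day 14.5. Founders had been depleted of cells carrying CD3e, CD45R, Ly-6G, CD11b, Ter119, Sca-1, CD16/32 or CD41 and stained for CD117 (Kit), CD71 (the product of Tfrc) and CD24 (the product of Cd24a). Single founders were sorted into wells and cultured with 100 nM dexamethasone; 16 hours later the 2 cells of wells with 1 completed division were sequenced as separate libraries. The 26 untreated cells came from founders isolated the same way and cultured without dexamethasone. The cells are primary cells in culture, were chosen because they had divided once, and carry no label for the embryo they came from. The question asked of them was for which genes the 2 daughters of a founder resembled each other more, or less, than cells of different founders did.

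BFU-E cells are early red cell progenitors that can either renew or move towards the later colony-forming stage. Glucocorticoids such as dexamethasone act through the receptor encoded by Nr3c1 and are known to favour renewal of these cells over maturation. The 2 daughters of a division receive RNA and protein from the same cytoplasm and start from the lineage and maturation state of the founder.

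Total counts ran from 210383 to 4176347 per library, with a median of 2577701, and 3886 to 9473 genes were detected per cell. One library stood apart: cell 1 of pair 12 held 210383 counts, while the next shallowest held 1191155. No 2 libraries held identical values. Erythroid maturation genes were detected in all 26 cells (3 or more of the 42 listed genes at 10 CPM, counts scaled to the total of each library). Granulocyte and monocyte genes, the products of another lineage, reached a summed level of 1000 CPM in 7 cells, which were both daughters of pairs 6, 7 and 10 and cell 1 of pair 12. Their sums ran from 5794 to 30226 CPM in these 7 cells, and no other cell exceeded 822 CPM. By the count of genes, 15 of 26 cells held 3 or more of the 24 listed genes at 10 CPM. Genes of lymphoid cells, macrophages, mast cells, hepatocytes and endothelium never reached 3 listed genes at 10 CPM in any cell. By sums, mast cell genes still reached 2410 CPM in cell 2 of pair 6, and endothelial genes 5480.5 CPM in cell 1 of pair 12. Megakaryocyte genes reached 3 listed genes at 10 CPM in 13 of 26 cells, with sums of up to 1564 CPM. Pf4 and Ppbp were at 0 in all cells. The part of megakaryocyte genes in the results was not tested. Because the libraries of pairs 6, 7, 10 and 12 bear on the results, counts are given with and without them below.

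The 2 daughters of a pair always stood in the same column of the plate, and so shared the index read that marked the column while their row indexes differed. The 4 column indexes are shown because any effect of a plate column would look like similarity of daughters.
column 3, pairs 1 to 4: aggcagaa
column 4, pairs 5 to 8: tcctgagc
column 6, pair 9: taggcatg
column 7, pairs 10 to 13: ctctctac
Results are therefore also given against cells of the same plate column only. Pair 9 was alone in its column and has no such cells. In these ratios its daughters still count in the within-pair difference, but no between-pair couple includes them.

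For most genes the daughters were closer to each other than to cells of other pairs, and for a small set, among them lineage, iron and mitochondrial genes, the gap was wide. For each gene, the within-pair difference is the absolute difference in log2(CPM + 1) of the 2 daughters, averaged over the 13 pairs, and the between-pair difference is the same over all 312 couples of cells from different pairs. The median gene had a within-pair difference of 2.31 and a between-pair difference of 2.94. The ratio of the first to the second was under 1 for 5128 of 6949 genes (73.8%), and its median was 0.864. Over random re-pairings of the same cells the median ratio was 1.01, and the observed value lay below it with p = 2e-05, the smallest p the permutation test can give. Against cells of the same plate column the median ratio was 0.908.

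Genes differed widely in this ratio. The 25th and 75th percentiles were 0.711 and 1.01, and the 5th and 95th percentiles were 0.499 and 1.202. The ratio hardly moved with the level of a gene: the median was 0.880 in the fifth of genes with the lowest mean level and 0.872 in the fifth with the highest. The calls did move with the level. Over the 5 groups from the lowest to the highest level, edgeR called 5, 11, 18, 21 and 114 genes. Both tests called 0, 3, 5, 6 and 13. The shares of all genes given beside gene lists below are not matched for level. Of all genes, 15.2% held 5 or more counts in 1 daughter and 0 in the other, against 20.5% for couples of cells from different pairs. These shares ran from 9.77% to 19.9% over the 13 pairs and from 10.02% to 41.0% over the other couples, so they overlapped.

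**Figure D1:**
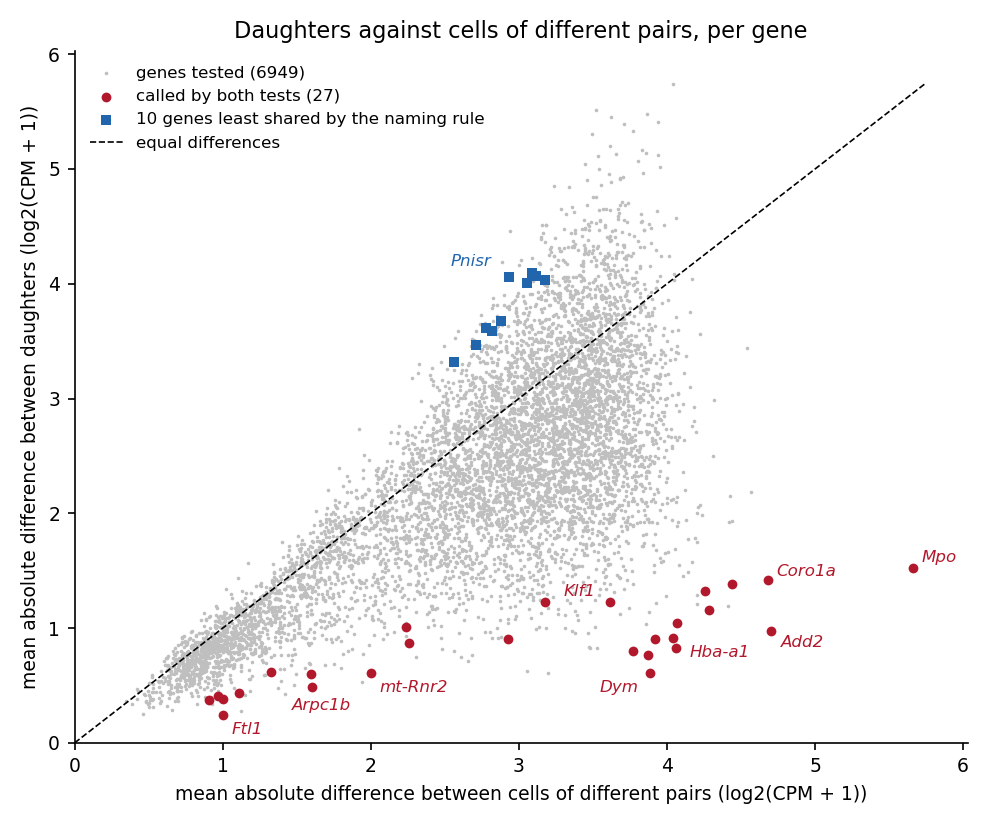
Mean absolute difference in log2(CPM + 1) between daughters (y axis) against that between cells of different pairs (x axis) for each of the 6949 genes (grey). The 27 genes called by both tests (red) lie far below the dashed line of equal differences, with Mpo at 1.52 against 5.66, while the 10 least shared genes of the naming rule (blue squares), such as Pnisr, lie above it.

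A gene is described here as shared by daughters where 2 tests called it, which held for 27 genes. The edgeR quasi-likelihood test asks whether pairs differ by more than their daughters do. It called 169 genes, 2.43% of those tested, at an adjusted p under 0.05, and 161 of these had a ratio under 1. An edgeR call alone need not mean close daughters. Sirt7 (ratio 0.863) and Lcmt1 (0.923) were called, both with an adjusted p of 0.0431, and differed most in pair 12. Without pair 12 their edgeR adjusted p was 0.614 and 0.690. The re-pairing permutation test called 48 genes as closer within pairs, 0.691% of those tested. It called 0 genes as farther apart within pairs than between, where 36 genes had an unadjusted p under 0.05 with a ratio over 1 and the smallest adjusted p was 0.159 (Utp3). The 27 genes called by both are 0.389% of those tested, with ratios from 0.156 to 0.464.

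These counts depended on single pairs and on the plate column. The edgeR count fell to 32 without pair 3 and to 47 without pair 12, and of the 27 genes 17 and 23 were still called. Leaving out pair 1, 3, 4, 5, 6, 7, 8, 9 or 10 left 8 to 15 genes called by both tests. Against cells of the same plate column edgeR called 8 genes, of which Hba-a1, Mpo, Lmna, Klf1 and Gemin6 belong to the 27 and Cd24a, Mrpl55 and BC003965 do not, and the permutation test called 0, with 579 genes at an unadjusted p under 0.05. Without pairs 6, 7, 10 and 12, edgeR called 10 of 5998 genes and the permutation test 0. Single ratios also moved: within columns Ftl1 went from 0.242 to 0.512 and Add2 from 0.208 to 0.460. Pair 9 was highest for both genes and is left out of the between-pair couples there. Its part in these changes was not tested.

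Granulocyte and monocyte genes set a few founders apart from the rest. Of 24 listed genes 8 passed the filter, and 3 of them, Mpo, Emb and Igfbp4, were called by both tests; edgeR alone also called Prtn3, Spi1 and Ctsg. Several of the 8 passed the filter mainly through the pairs in which they were high. Igfbp4 reached 5 counts in 8 cells, and Emb and Prtn3 in 9. The filter does not look at pairing, but genes that passed it in this way are no independent support for likeness of daughters. The median ratio of the 8 is therefore a description only (0.324); without pairs 6, 7, 10 and 12, 2 genes of the list could be tested, with a median of 0.656. Mpo encodes myeloperoxidase, the main enzyme of neutrophil granules (chr11:87793581-87804413). Its level ran from 0 to 14.53 log2(CPM + 1) over the 26 cells with a median of 4.20. It stood at 14.26 and 14.53 in the daughters of pair 6, at 12.49 and 12.17 in pair 7, at 12.24 and 13.84 in pair 10, and at 9.12 and 8.82 in pair 9. All these cells lay above both daughters of every other pair except cell 1 of pair 12, which held 12.46 where its sister held 3.06. The within-pair difference was 1.52 ± 2.51 (SD, n = 13 pairs) against 5.66 between pairs, with an edgeR adjusted p of 0.00111 and a permutation adjusted p of 0.0232.

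Prtn3, which encodes proteinase 3 of the same granules, stayed between 9.18 and 10.83 in pairs 6, 7 and 10 and at or below 4.91 in all other cells. Its ratio was 0.270, with an edgeR adjusted p of 0.00198 and a permutation adjusted p of 0.0585. Emb, which encodes the surface glycoprotein embigin, was at 7.89 to 10.42 in the same 6 cells and at 5.09 or lower elsewhere. Igfbp4, which encodes a binding protein of insulin-like growth factors, was at 7.08 to 9.08 in those 6 cells and at 6.40 and 6.25 in pair 8. Alox5ap, which encodes the protein that presents arachidonic acid to 5-lipoxygenase, followed a like pattern with 7.49 to 9.06 in pairs 6, 7 and 10. For these genes both daughters of a founder were high or both low in nearly every pair, and the sisters of pair 12 were the exception for Mpo. Prtn3, Emb and Alox5ap reached 5 counts in 9 cells and Igfbp4 in 8, mainly those of the pairs in which they were high. For these 4 genes the ratios and p-values are therefore given as a description only. Without pairs 6, 7, 10 and 12 Mpo had a ratio of 0.298 with an edgeR adjusted p of 0.142. The founders had been depleted of cells carrying CD16/32, CD11b and Ly-6G.

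Erythroid maturation genes formed the second group. Of 42 listed genes 32 could be tested. The edgeR test called 10 of them (31.3%, where it called 2.43% of all genes). The permutation test called 3, where it called 0.691% of all genes. A ratio under 1 was held by 30 (93.8%, against 73.8% of all genes). The list's median ratio was 0.575, and 0.637 against cells of the same plate column, where all genes had 0.864 and 0.908. Klf1, which encodes the erythroid Krüppel-like transcription factor (chr8:84901928-84905291), ran from 0 to 12.89 with a median of 9.07. Both daughters were between 6.96 and 11.33 in pairs 1 to 5, 8, 9, 11 and 13, and both were at 1.71 or lower in pairs 6 and 7. In pair 10 the daughters were at 2.56 and 6.84, and in pair 12 at 12.89 and 9.05. The within-pair difference was 1.23 ± 1.38 (SD, n = 13 pairs) against 3.61 between pairs, a ratio of 0.339, with an edgeR adjusted p of 0.00198 and a permutation adjusted p of 0.0425.

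Hba-a1, which encodes an adult alpha-globin chain (chr11:32283511-32284465), ran from 0 to 11.65 with a median of 6.55. The daughters of pair 9 were highest, at 11.58 and 11.65, and those of pair 12 came next, at 9.23 and 9.73. Pairs 1 to 5, 10 and 13 lay between 5.81 and 8.78, and pairs 6, 7, 8 and 11 lay between 0 and 3.45, so that no cell of the low pairs reached the others. The within-pair difference was 0.91 ± 0.87 (SD, n = 13 pairs) against 4.04 between pairs, a ratio of 0.225, with an edgeR adjusted p of 0.00159 and a permutation adjusted p of 0.0174. Of the 50-base windows of Hba-a1 transcripts 72.3% also occur in Hba-a2, so reads of the 2 genes can be exchanged. Hba-a2 itself stayed between 0 and 7.86 and had a ratio of 0.424, with a permutation adjusted p of 0.0744. Of the beta-globin genes, Hbb-bs had a ratio of 0.689 and was called by edgeR (adjusted p of 0.0214) but not by the permutation test (0.375). Hbb-bt had a ratio of 0.705 and was called by neither (0.420 and 0.519).

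Add2, which encodes beta-adducin of the red cell membrane skeleton (chr6:86028681-86124409), was on in both daughters or off in both in 12 of 13 pairs. It stood between 7.14 and 9.84 in both daughters of pairs 1 to 5 and 9, and at 0.94 or lower in both daughters of pairs 6, 7, 8, 10, 11 and 12. Pair 13 was split, with 0.36 in one daughter and 8.20 in the other. Its ratio was 0.208, with an edgeR adjusted p of 0.0104 and a permutation adjusted p of 0.0451; against cells of the same plate column the ratio was 0.460. Cd24a, the gene of the CD24 antigen used in the sort, had a ratio of 0.306 and was called by edgeR (adjusted p of 0.00270) but not by the permutation test (0.0566). It was at 7.80 or higher in both daughters of pairs 1 to 5, 9 and 13 and at 1.66 or lower in both daughters of pairs 6, 7 and 8.

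Gata1, which encodes the central erythroid transcription factor, showed how much a few founders could carry. Its level ran from 0 to 11.42 with a median of 8.79, and it was at 1.36 or lower in pairs 6 and 7 and at 7.66 or higher in both daughters of pairs 1 to 5, 8, 9, 11 and 13. In pair 10 the daughters were at 2.83 and 7.46, and in pair 12 at 3.93 and 9.01. Its ratio was 0.465 over 13 pairs, with an edgeR adjusted p of 0.0393 and a permutation adjusted p of 0.180. Without pairs 6, 7, 10 and 12 the ratio was 1.14 and the edgeR adjusted p 0.622. Over the same 9 pairs Klf1 had a ratio of 0.555, Hba-a1 of 0.252 and Add2 of 0.287, with edgeR adjusted p of 0.2498, 0.0626 and 0.238. The erythroid list kept a median ratio of 0.644 over these 9 pairs, where all genes had 0.880.

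Both Klf1 and Add2 were shared by daughters, and the sequences upstream of their starts are shown because factors that bind GATA and CACC motifs act on many erythroid genes. The GATA motif was searched in the form AGATAA and with T for its first letter, G for its last letter or both, and the CACC motif as CCNCNCCC. Both strands were searched, matches are in capitals, and overlapping matches were merged. The windows are from RefSeq (GRCm38.p6), plus strand, chr8:84901732-84901927 for Klf1 and chr6:86028431-86028680 for Add2.
Klf1: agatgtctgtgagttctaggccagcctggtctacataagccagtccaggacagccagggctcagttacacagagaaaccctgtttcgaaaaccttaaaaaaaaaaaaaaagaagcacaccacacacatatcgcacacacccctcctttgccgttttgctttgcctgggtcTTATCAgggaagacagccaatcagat
Add2: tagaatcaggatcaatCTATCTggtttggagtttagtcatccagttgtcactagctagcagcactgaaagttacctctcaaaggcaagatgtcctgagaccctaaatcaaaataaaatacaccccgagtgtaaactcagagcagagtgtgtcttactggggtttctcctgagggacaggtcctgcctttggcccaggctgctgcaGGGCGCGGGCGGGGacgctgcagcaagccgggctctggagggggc
Klf1 held 1 match to the GATA motif and 0 to CCNCNCCC; Add2 held 1 and 2. The Klf1 window printed stops before the GENCODE start and is 196 bases long. Over the full 250 bases upstream of each RefSeq start, 6 of the 21 shared genes with a promoter entry held a match to the GATA motif (28.6%, against 27.1% of 27025 promoters). For CCNCNCCC it was 15 of 21 (71.4%, against 45.6%). A match is a description of the letters only.

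Iron and mitochondrial genes were closely shared, and their ratios rose against cells of the same plate column. Ftl1 encodes the ferritin light chain (chr7:45457944-45459884, minus strand). It was expressed in all 26 cells, from 10.77 to 14.36 with a median of 11.68. Pair 9 stood highest with 14.25 and 14.36, pair 12 held 13.23 and 13.18, and pair 6 held the lowest cell, with 10.77 and 11.12. The daughters differed by at most 0.69, and by 0.24 ± 0.18 on average (SD, n = 13 pairs), against 1.00 between pairs. The edgeR adjusted p was 0.00195 and the permutation adjusted p 0.0174. Of the 50-base windows of Ftl1 transcripts 47.3% also occur in Ftl1-ps1, a near-identical copy, so its counts may be split between the copies.

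Fth1, the ferritin heavy chain gene, ran from 9.78 to 12.65 with a median of 11.72 and had a ratio of 0.385. Alad, which encodes an early enzyme of heme synthesis, ran from 2.01 to 11.51 and had a ratio of 0.387. Both were called by both tests. Both daughters of pair 8 were lowest for Fth1 (9.93 and 9.78), both of pair 7 were lowest for Alad (2.90 and 2.01), and both of pair 9 were highest for Alad (11.46 and 11.51). The 13 genes of iron handling tested had a median ratio of 0.636, and all 13 were under 1. The 8 genes of heme synthesis had 0.670, with 6 (75%) under 1. Over all genes the median was 0.864, and 73.8% were under 1. Without pairs 6, 7, 10 and 12, the 5 of the 27 genes that edgeR still called were Ftl1, Fth1, Alad, Lmna and mt-Rnr2, with adjusted p of 4.96e-06, 0.0108, 0.0329, 0.0477 and 0.000193.

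The mitochondrial transcripts differed by plate column. The mitochondrial 16S rRNA, mt-Rnr2 (chrM:1094-2675), ran from 6.44 to 13.23 with a median of 11.26. All 16 cells of pairs 1 to 8, in plate columns 3 and 4, lay between 10.97 and 13.23, and all 10 cells of pairs 9 to 13, in columns 6 and 7, lay between 6.44 and 9.90. The within-pair difference was 0.60 ± 0.68 (SD, n = 13 pairs) against 2.00 between pairs, a ratio of 0.302, with an edgeR adjusted p of 0.00111 and a permutation adjusted p of 0.0174. Against cells of the same plate column the ratio was 0.646 and the edgeR adjusted p 0.457. mt-Co1, which encodes a core subunit of cytochrome c oxidase, had the same split, with 11.36 to 12.48 in pairs 1 to 8 and 6.59 to 10.81 in pairs 9 to 13, and its ratio went from 0.377 to 0.723.

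Over the 10 mitochondrially encoded genes tested, all 10 ratios were under 1, where 73.8% of all genes were. The median was 0.489 over all cells and 0.746 within columns, where all genes had 0.864 and 0.908. Founders 9 to 13 and plate columns 6 and 7 cannot be told apart. Ftl1 had a ratio of 0.512 within columns, where couples with pair 9, its highest pair, are left out. Mpo (0.325), Hba-a1 (0.285) and Arpc1b (0.307) stayed near the values over all cells.

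Genes of the actin cytoskeleton, the nuclear lamina and chromatin were also among the shared genes. Of 29 genes of the actin cytoskeleton list tested, 4 were called by both tests (13.8%, against 0.389% of all genes). These 4 were Arpc1b, Coro1a, Tmsb4x and Lmna, a nuclear lamina gene held in the same list. A ratio under 1 was held by 28 (96.6%, against 73.8% of all genes), and the median of 0.816 was near that of all genes (0.864). Arpc1b, a subunit of the Arp2/3 complex that branches actin filaments, ran from 5.60 to 11.10 and differed by 0.48 ± 0.75 (SD, n = 13 pairs) within pairs against 1.61 between. Coro1a, the actin-binding coronin of blood cells, ran from 0 to 10.91 with a ratio of 0.304. It was above 8.2 in both daughters of pairs 6, 7, 8, 10 and 11 and at or below 2.25 in both daughters of pairs 3, 4, 5 and 9. Tmsb4x, which encodes the actin-sequestering thymosin beta 4, was at 9.99 to 11.65 in pairs 6, 7 and 10 and at 8.73 or lower in all other cells. Lmna, which encodes the nuclear lamins A and C, was at or below 1.39 in both daughters of pairs 6, 7, 8 and 11 and at 6.48 or higher in both daughters of pairs 1 to 5, 9 and 10. Pairs 12 and 13 were split for Lmna, at 3.93 and 8.94 and at 4.91 and 0.61.

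Hmgn2, a nucleosome-binding protein gene, ran from 7.70 to 11.61 with a ratio of 0.391, and Hspa8, the constitutive heat shock cognate, ran from 9.72 to 13.08 with a ratio of 0.413. Both were expressed in all 26 cells, so that their similarity in daughters was one of level and not of detection. The 2 smallest ratios among the 27 genes belonged to Dym and Tssc1, which are in no list. Dym, which encodes the Golgi protein dymeclin, had a ratio of 0.156; both daughters were at 5.57 or higher, or both under 4.3, in 12 of 13 pairs, pair 13 standing at 5.57 and 3.98. Tssc1 had a ratio of 0.197. Cyth3, the gene of an exchange factor for Arf proteins and also in no list, had 0.256. The 6 other genes called by both tests, named for completeness outside the naming rule, were F2r (0.310), Limd2 (0.311), Gemin6 (0.387), Ndufa8 (0.419), Itm2b (0.451) and Arhgdib (0.464).

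**Figure D2:**
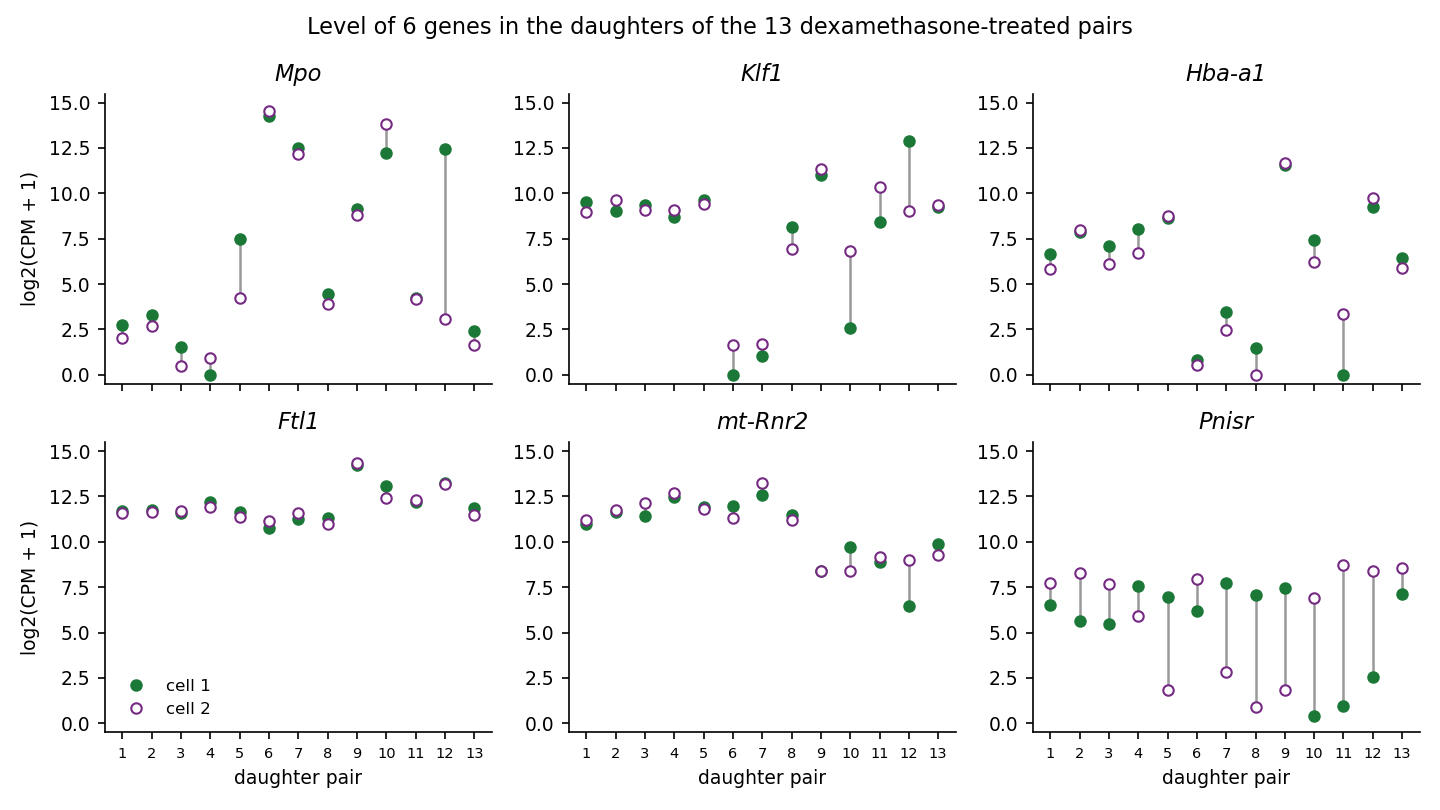
Level of 6 genes, in log2(CPM + 1), in cell 1 (filled) and cell 2 (open) of each of the 13 pairs, joined by a grey line. Daughters lie together for Mpo, Klf1, Hba-a1, Ftl1 and mt-Rnr2 in most pairs, with pair 12 apart for Mpo (12.46 and 3.06), while for Pnisr one daughter is often high and the other low.

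Lists of the cell cycle, translation, metabolism and the glucocorticoid response held few or no genes called by both tests. Both tests called only 0.389% of all genes, so few or no calls in lists of this size are no result about them. Over all genes tested, 13.6% had an unadjusted permutation p under 0.05 and edgeR called 2.43%. The counts below can be set beside these shares, which are not matched for level. In the group of genes with the highest level edgeR called 114 of 1390, and in the lowest 5 of 1390. For lists of high level, such as ribosomal protein genes, 2.43% is therefore a low share to compare with. A comparison matched for level was not made. Of 52 genes of G2/M and mitosis tested, edgeR called 1 (Cdca8), and 12 (23.1%) had an unadjusted permutation p under 0.05. A ratio under 1 was held by 44 (84.6%, against 73.8% of all genes). The median was 0.711 over 13 pairs and 0.894 over the 9 pairs left without pairs 6, 7, 10 and 12. All genes had 0.864 and 0.880 in these 2 sets. Of 44 genes of G1/S and replication 0 were called by either test, with 9 (20.5%) at an unadjusted permutation p under 0.05 and a median ratio of 0.828. Of 84 ribosomal protein genes edgeR called 14 (16.7%) and the permutation test 0, with 26 (31.0%) at an unadjusted p under 0.05 and a median of 0.829. Glycolysis genes (18 tested, median 0.891) and Atf4 targets (18 tested, 0.894) were slightly above all genes in their ratio. The edgeR test called 3 of the glycolysis genes (16.7%) and 0 of the Atf4 targets.

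Of 15 glucocorticoid response genes tested, edgeR called 0 and the permutation test called 1, Mt2, a metallothionein. A ratio under 1 was held by 14 (93.3%, against 73.8% of all genes). An unadjusted permutation p under 0.05 was held by 5 (33.3%, against 13.6%). The median ratio was 0.692, against 0.864 for all genes. Tsc22d3, the gene of the glucocorticoid-induced leucine zipper, had a within-pair difference of 2.94 ± 2.89 (SD, n = 13 pairs) against 3.51 between pairs, with a permutation adjusted p of 0.767. Nr3c1, the gene of the glucocorticoid receptor, had 3.23 ± 2.97 against 3.58, with a permutation adjusted p of 0.887. Each of the 2 was high in both daughters of some pairs, low in both of others, and present in a single daughter of the rest. Kit, the receptor used in the sort, had a ratio of 0.667, Tfrc of 0.541, Epor, the erythropoietin receptor gene, of 0.661, Myc of 0.814 and Mki67, a gene of cycling cells, of 0.867; none of these 5 was called by either test.

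**Figure D3:**
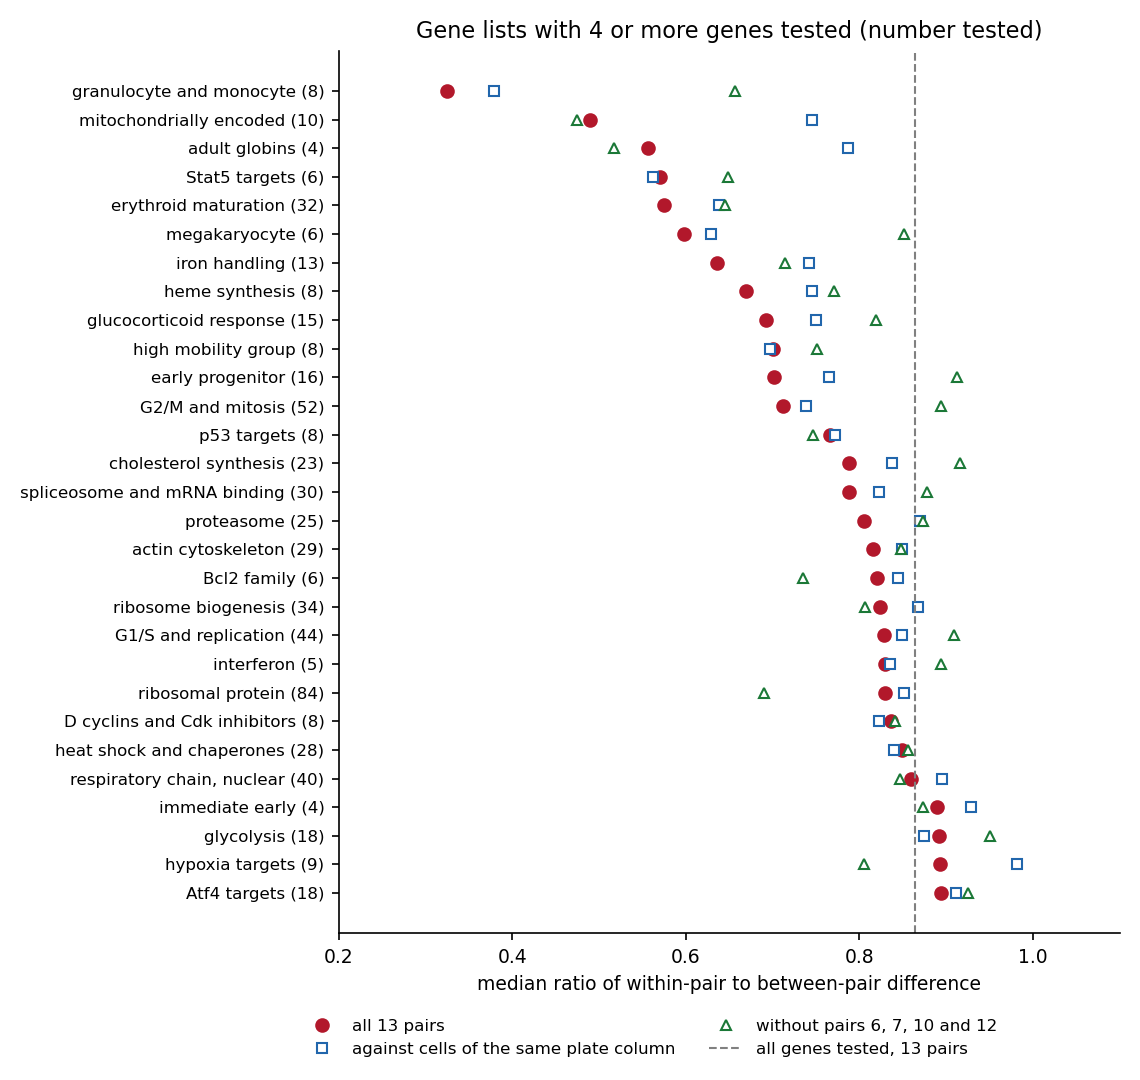
Median ratio of within-pair to between-pair difference for each gene list with 4 or more genes tested, over all 13 pairs (red), against cells of the same plate column (blue squares) and without pairs 6, 7, 10 and 12 (green triangles). Granulocyte and monocyte genes, several of which passed the filter through pairs 6, 7 and 10, go from 0.324 to 0.656 (2 genes) without the 4 pairs, and mitochondrially encoded genes move from 0.489 to 0.746 within columns, while the dashed line marks all genes at 0.864.

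At the other end, some well-detected genes were farther apart in sisters than in unrelated cells, though none passed adjustment. Among the 1137 genes with 5 counts in 20 or more cells and a between-pair difference in the upper part of these, the 10 largest ratios ran from 1.27 to 1.39. Pnisr, which encodes a serine- and arginine-rich protein that interacts with splicing factors (chr4:21847583-21876475), headed them. Its level ran from 0.38 to 8.70 with a median of 6.94. One daughter was above 6.9 and the other below 2.9 in pairs 5, 7, 8, 9, 10, 11 and 12. The within-pair difference was 4.06 ± 2.30 (SD, n = 13 pairs) against 2.93 between pairs, with a permutation p of 0.00576 before adjustment and 0.170 after.

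The others were Desi1 (ratio 1.33), Ppig (1.31), Smc1a (1.30), Crnkl1 (1.30), Ift20 (1.30), Lsm10 (1.28), Tsr2 (1.28), Wdr5 (1.28) and Pbrm1 (1.27). Ppig, Crnkl1 and Lsm10 encode factors of RNA splicing or processing, Smc1a a cohesin subunit, Wdr5 and Pbrm1 subunits of chromatin complexes, and Ift20 a protein of ciliary transport. Smc1a was above 7.1 in one daughter and below 2 in the other in pairs 2, 6, 7, 9 and 11. The adjusted permutation p of these 9 genes ran from 0.285 to 0.491. In the untreated pairs Crnkl1 had a ratio of 1.06 and the 9 others, Pnisr included, were between 0.474 and 0.962.

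Distances between whole transcriptomes set the pairs in order. The median absolute difference over the 6949 genes was 1.21 ± 0.48 (SD, n = 13 pairs), from 0.71 in pair 11 to 2.52 in pair 12. It was below the median distance of the same cells to cells of other pairs in 11 of 13 pairs; pair 10 lay above it (1.82 against 1.68) and pair 12 at it (2.52). The sister was the nearest of the 25 other cells for 11 of 26 cells by this measure and for 9 by the correlation, and the nearest for both daughters in 3 pairs by either measure. Pairs 5 and 11 were mutually nearest by both measures. Number of genes detected was closer in daughters (mean difference of 655 genes against 1487 between pairs, permutation p of 0.00028), while for log2 total counts the difference did not pass (0.670 against 0.847, p of 0.148).

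**Figure D4:**
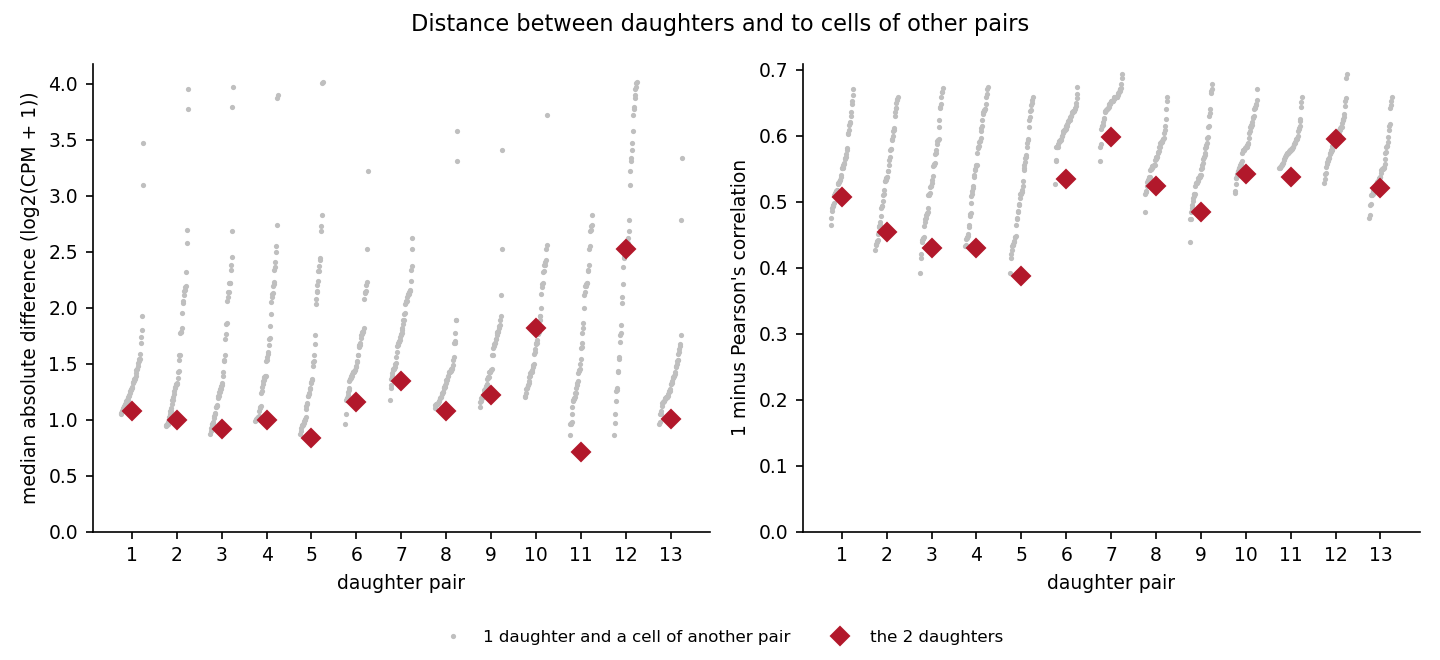
Distance between the 2 daughters of each pair (red diamonds) and between each daughter and every cell of other pairs (grey points), as the median absolute difference in log2(CPM + 1) on the left and 1 minus Pearson's correlation on the right. Pairs 12 and 10 stand highest on the left (2.52 and 1.82) and pairs 7 and 12 on the right (0.599 and 0.595).

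The order of the closest pairs depended on the measure. Pair 11 had the smallest median difference (0.71), which is the level of 2 counts in its cell 2; in thinned libraries it was 1.12, rank 9 of 13 from the top. It also had the rank of 4 from the top by 1 minus Pearson's correlation (0.537), and 1039 genes, 14.95% of those tested, had their largest difference of the 13 pairs in it. Its cells had few genes detected (6029 and 6140). Pair 5 was closest by 1 minus Pearson's correlation (0.388), second closest by the median difference (0.84), and held the largest difference for 104 genes, 1.497%. In pair 5 the 32 erythroid maturation genes had mean levels of 6.99 and 7.03 in the daughters, 16 of them higher in each.

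Pair 12 had the largest median difference and came after pair 7 by 1 minus Pearson's correlation. Its libraries held 210383 and 1223692 counts, a 5.82-fold difference in depth, and 1426 genes, 20.5%, had their largest difference in it, 1204 of them higher in cell 2. The median difference of 2.52 is the level of a single count in cell 1, so it is set by the depth of that library. Zpr1, which encodes a zinc finger protein, Sirt7, a deacetylase gene, Hsdl2, Me2 and Lcmt1 were at 12.86 to 13.88 in cell 1 and at 0.86 or lower in cell 2; these are among the largest differences in that direction. In the other direction Rrp8, Slc41a3, Cdc6 (a replication licensing factor), Myo1c, Aifm1 and Txnl4a had 0 counts in cell 1 and 1191 to 1314 counts in cell 2. The granulocyte and monocyte genes were higher in cell 1, with list means of 4.50 and 1.85 over 8 genes, and the erythroid genes higher in cell 2, with 3.46 and 5.85 over 32 genes. Lists unrelated to lineage rose towards the deeper cell 2 as well, such as the 40 nuclear genes of the respiratory chain (4.77 and 7.88) and 28 heat shock and chaperone genes (5.13 and 8.02), and the summed erythroid level was higher in cell 1 (13228 and 11184 CPM). Mpo was the single myeloid gene at high level in cell 1: it gave 5633 of the 5794 CPM summed over the list. Klf1 (12.89 against 9.05) ran against the erythroid list and was higher in cell 1. Thinning to 210383 counts leaves cell 1 as it is, so the thinned value of pair 12 is 2.52 again and says nothing further. By the share of genes with 5 or more counts in one daughter and 0 in the other, pair 12 (15.2%) lay below pair 9 (19.9%), pair 8 (19.1%) and pair 7 (19.1%).

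Pair 10 came second, with a median difference of 1.82 between 2 deep libraries (3277829 and 3655139 counts). Both daughters carried Mpo (12.24 and 13.84), Prtn3 (10.83 and 9.18) and Emb (7.89 and 8.09), but cell 2 had more erythroid and early transcripts. Gata1 was at 2.83 and 7.46, Klf1 at 2.56 and 6.84, Epor at 0.69 and 5.83 and Kit at 0.38 and 8.22 in cells 1 and 2. The 16 early progenitor genes had means of 4.28 and 6.88, 12 of them higher in cell 2, and the 6 megakaryocyte genes had means of 2.13 and 6.22. The 84 ribosomal protein genes were lower in cell 2, with means of 9.45 and 8.12 and 81 of 84 higher in cell 1. The 40 nuclear genes of the respiratory chain were also lower in cell 2 (9.24 and 8.54). Other lists unrelated to lineage rose in cell 2, such as 34 ribosome biogenesis genes (5.06 and 7.43) and 28 heat shock and chaperone genes (7.16 and 8.50). More genes were detected in cell 2 (9473 against 7902). The rise was therefore not particular to erythroid and early genes.

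The 6 largest differences towards cell 2 in pair 10 were in Anapc5, a subunit of the anaphase-promoting complex (9 and 5925 counts), Supt5, Tmem214, Chaf1a, Nrm and Pwp2, the last 4 with 0 counts in cell 1. Towards cell 1 they included Smyd3, Mrrf, Rad51d, Commd9 and Spns3, with 1187 to 1722 counts in cell 1 and 0 in cell 2. One gene was far higher in both daughters of pair 10 than in any other cell. Kel, the gene of the Kell blood group protein, was at 14.43 and 16.02 in pair 10 and at 8.14 or lower in the 24 other cells. It was called by edgeR only. Kel made up most of the summed erythroid level of cell 2 (66541 of 70149 CPM), and where in the gene its reads map cannot be read from gene counts.

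Pair 7 was the next by the median difference (1.34) and first by 1 minus Pearson's correlation (0.599). Its libraries held 3721624 and 1320976 counts. Its daughters shared the granulocyte genes (list means of 8.27 and 8.96) and low erythroid genes (1.99 and 2.51). Of the genes tested, 19.1% held 5 or more counts in 1 daughter and 0 in the other, a share not particular to pair 7. It was 19.9% in pair 9, 19.1% in pair 8 and 19.0% in pair 13, and 20.5% for couples of cells from different pairs. Towards cell 1 the largest differences included Vps4b, a factor of membrane scission, Arhgap1, Eefsec, Rassf5 and Pja1, with 2127 to 3653 counts in cell 1 and at most 1 in cell 2. Towards cell 2 they were in Chd9, Hif1a, the gene of the oxygen-regulated transcription factor, Slc25a1, Ppat, Hadha and Dync1h1, with 984 to 1535 counts in cell 2 and at most 2 in cell 1. Hif1a had 0 counts in cell 1 and 1143 in cell 2.

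Cell 1 and cell 2 are numbers only, so the contrast between them shows what the fits give for labels without meaning. It is not a check of the test of pair terms or of the re-pairing test. With the pair as a block, edgeR called 0 of 6949 genes (0%) between cell 2 and cell 1, with 179 at an unadjusted p under 0.05; limma called 0 as well and DESeq2 called 259. Sex-linked transcripts bore on the pairing itself. Xist, the RNA of the inactive X chromosome, reached 10 CPM in 6 pairs and a Y-linked gene (Ddx3y, Eif2s3y, Kdm5d or Uty) in 6 others, 1 pair had neither, and 0 pairs had both. Xist was in both daughters of 3 of its 6 pairs.

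The untreated pairs give a separate set of cells in which to look at the 27 genes. They include pairs with the same lineage split. Both daughters of untreated pairs 9 and 10 held granulocyte and monocyte sums of 21583 to 47112 CPM. These cells held 5 or 6 erythroid maturation genes at 10 CPM. Both pairs are in the untreated counts below, which were not repeated without them. Of these genes 23 could be tested in the 10 untreated pairs with both libraries over 100000 counts; 21 had a ratio under 1 (91.3%, against 71.2% of all genes tested in both groups) and their median ratio was 0.515 against 0.862. edgeR called 29 of 6264 genes in the untreated pairs, 0.463%, and 8 of them were among the 23: Arhgdib, Coro1a, Hba-a1, Hmgn2, Klf1, Lmna, Mpo and Tmsb4x. These 8 are 27.6% of the untreated calls and 34.8% of the 23 genes. Mpo had a ratio of 0.179, Klf1 of 0.162 and Hba-a1 of 0.195 there, with edgeR adjusted p of 2.60e-06, 0.00221 and 0.00482. Dym (0.7996), Tssc1 (1.02), Alad (0.882) and Gemin6 (1.18) were not called in untreated daughters by either test. The mitochondrial genes mt-Rnr2 and mt-Co1 had ratios of 0.659 and 0.635 and were not called.

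Within-pair differences were not called as different with and without dexamethasone for any gene. A permutation test of the treatment labels over 13 treated and 10 untreated pairs called 0 of 7248 genes (0%), with 328 at an unadjusted p under 0.05, 179 of them larger with dexamethasone, and a smallest adjusted p of 0.0725; limma on the same differences called 0. The median within-pair difference was 2.28 with dexamethasone and 2.11 without, a difference of 0.17 (permutation p of 0.183). With the 2 shallow untreated pairs included the direction turned, with 2.28 against 2.30 (difference of -0.02, p of 0.884), and 138 of the 314 genes with an unadjusted p under 0.05 were larger with dexamethasone.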

How the data were processed

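Single-cell libraries were made from polyA RNA of the 2 cells of each pair. The deposited table holds raw counts of reads per gene (49466 genes, Ensembl identifiers paired with symbols), made by the authors with STAR 2.4 and featureCounts on GRCm38, per the submitters' processing notes; strand and multimapping settings were not found in these sources. CPM, log2(CPM + 1), differences and ratios were computed from these counts. Genes that reached 5 counts in 8 or more of the 26 cells were tested. The main test was edgeR 4.0.16 (R 4.3.3), a quasi-likelihood F test of all pair terms with TMM scaling. The second test compared each gene's mean absolute difference within pairs with that over 100000 random re-pairings of the same cells (2-sided, smallest p 2e-05). Both were adjusted by Benjamini-Hochberg over all genes tested and called at 0.05. Both were also run on simulated counts with the same spread (dispersion) for every gene. The simulation did not model genes on in 1 daughter and off in the other, so it does not show how the tests hold for these. limma 3.58.1 and DESeq2 1.42.0 served as alternatives. Untreated pairs were used where both libraries held 100000 counts. The members, gene lists and tests were chosen with earlier results of these data known. Genes are named by a rule: the 15 smallest ratios among non-predicted genes called by both tests, up to 3 more per list, the 10 largest ratios among genes with 5 counts in 20 or more cells and a between-pair difference in the upper part, the 6 largest differences in each direction in each of the 3 most distant pairs, and a list of 20 lineage, cycle, sex-linked and hormone genes; 3 genes that the rule names are not reported here. The labels name no embryo or litter for a founder, so founders and wells were the units, some of which may share an animal. The edgeR p-values of sharing set differences between pairs against the spread between daughters. The re-pairing p-values set daughters against randomly paired cells. Only the p-values of the treatment comparison measure the spread between pairs. Gene positions are from GENCODE M21 and promoter windows from RefSeq (GRCm38.p6).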

Additional observations from a re-analysis of the deposited data

How the results depend on the processing

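The median ratio of within-pair to between-pair differences stayed under 1 with a permutation p under 0.05 in all settings tried: log2(CPM + 10), thinned libraries, TMM-scaled sizes, both other filters, the plate column, without pairs 6, 7, 10 and 12 (0.880), and leaving out each pair (0.850 to 0.876). Counts of calls were less stable. The edgeR count of 169 became 268 with limma-trend, 1007 with the DESeq2 likelihood ratio test, 8 within plate columns and 10 without the 4 pairs, and 32 to 202 leaving out each pair. The permutation count of 48 became 0 within plate columns, 0 without the 4 pairs, 18 in thinned libraries, 23 with a filter of 1 count in 2 cells, 31 with TMM-scaled sizes, and 16 to 54 leaving out each pair. The count called by both, 27, became 0 within plate columns, 0 without the 4 pairs, 10 in thinned libraries, 10 with 1 count in 2 cells, and 8 to 26 leaving out each pair. The cause of these changes was not tested. For untreated daughters the permutation test called 6 genes where edgeR called 29. The replicate block did not move the contrast of cell 2 against cell 1, which had 0 calls with the pair as a block and 0 without; DESeq2 with the block called 259. Of the named genes called by the permutation test, 2 (Igfbp4 and Alad) missed adjustment with log2(CPM + 10) and 11 in thinned libraries, with the ratio still under 1. The settings without the 4 pairs, leaving out pairs in the permutation test and the forms of the GATA motif were chosen after seeing the data. Depth limits low genes most: cell 1 of pair 12 held 210383 counts, and intervals from counts would cover counting error only, since reads carry no molecular identifiers.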

Other observations

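A few genes were far higher in both daughters of 1 founder than in any other cell. Over the 6949 genes tested, 20 had their 2 highest cells at least 2 log2 units above the third, and in 5 of these the 2 cells were daughters (25%, where 13 of the 325 couples of cells, 4%, are daughters). The margin was chosen after seeing the data. Kel in pair 10 stood at 66541 and 22046 CPM, and the third cell at 280 CPM; where in the gene these reads map cannot be read from gene counts. Hbb-bs, a beta-globin gene, stood at 6593 and 5651 CPM in pair 9 and at 232 CPM in the next cell. Hmga2, a chromatin protein gene of fetal stem cells, stood at 347 and 221 CPM in pair 7 (27.2 CPM next), Arhgap45 at 1394 and 995 CPM in pair 7 (174 next), and Alad, which most cells expressed, at 2921 and 2815 CPM in pair 9 (658 next). Without any margin, the 2 highest cells were daughters for 551 genes, 7.93% of those tested.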
